A study of Mus musculus with 6 samples.

Results

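The Hox gene clusters were followed in chromatin of small intestinal crypts through the ATAC-seq peaks that the authors named for a Hox gene. ATAC-seq uses a transposase to cut and tag open DNA, so the number of reads over a peak measures how accessible it is. Members were all peaks whose deposited name was Hoxa, Hoxb, Hoxc or Hoxd followed by a number from 1 to 13. The rule gave 20 of 123510 peaks, of which 3 were in Hoxa, 4 in Hoxb, 5 in Hoxc and 8 in Hoxd. The 6 libraries came from 3 wild type (WT) samples and 3 samples with Vil-Cre mediated deletion of Smarcad1 (KO), a gene for a SNF2-family chromatin remodeler, all on the C57BL/6 background. The deletion removes floxed exons where Cre is expressed from the Villin promoter, which is active in the intestinal epithelium, so other cells of a crypt preparation keep the gene. The floxed mice were of the CE6 line, which was raised from 1 targeted embryonic stem cell clone. The age of the mice and any Cre or floxed allele in the WT samples were not given in the sources used here. Each library was made from 50000 cells of whole crypts.

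Hox genes encode homeodomain transcription factors that give cells their position along the head to tail axis. In mammals they lie in 4 clusters, and genes with the same number in different clusters are paralogues that descend from the same ancestral gene. Low numbers are used in anterior regions and high numbers in posterior regions, and in the gut the posterior genes mark its distal end. Where Hox genes are silent, their CpG-rich promoters are well known as targets of Polycomb repression.

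Read depth limits every value given here. The libraries held between 4339306 and 16301164 reads in peaks, and a Hox peak held between 4 and 174 reads in a library. The median over the 20 peaks was 18.5 reads in KO3, the shallowest library, and 60.5 in WT3, the deepest. The number 2 libraries were the lowest at promoters relative to all peaks, with WT1 next. The median level of promoter peaks lay 0.60 (WT2) and 0.51 (KO2) above that of all peaks on the log2 scale, against 0.70 to 1.04 in the other libraries. The 4 peaks named Smarcad1 had KO minus WT differences from -0.14 to -0.01 on the log2 scale and limma adjusted p-values of 1.00, and accessibility does not check the genotype. Nothing in the sources says that a sample is 1 mouse, so p-values measure the spread between these samples.

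The most accessible peaks named for a Hoxb, Hoxc or Hoxd gene in WT are shown first with sequence from within them. The weakest Hox peak of all is shown with them, because CpG content is a property that these peaks shared. All are from the plus strand of GRCm38 and are written with CpG dinucleotides in capitals. The Hoxb9 stretch (chr11:96271726-96272025) lies in a coding exon of Hoxb9 and holds 33 CpGs in 300 bases. The Hoxc11 stretch (chr15:102956026-102956325) lies in the intron of Hoxc11 and holds 13. The Hoxd11 stretch (chr2:74682023-74682322) lies just before the start of the coding Hoxd11 transcript and holds 28. The Hoxb1 stretch (chr11:96366151-96366450), from the weakest peak, lies in a coding exon of Hoxb1 and holds 16.
Hoxb9: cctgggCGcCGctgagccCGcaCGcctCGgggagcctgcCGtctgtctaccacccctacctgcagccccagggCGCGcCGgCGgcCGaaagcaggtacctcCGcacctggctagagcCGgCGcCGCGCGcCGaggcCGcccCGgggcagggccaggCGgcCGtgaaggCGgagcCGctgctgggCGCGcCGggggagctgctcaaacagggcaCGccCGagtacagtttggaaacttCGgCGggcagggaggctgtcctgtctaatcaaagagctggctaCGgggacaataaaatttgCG
Hoxc11: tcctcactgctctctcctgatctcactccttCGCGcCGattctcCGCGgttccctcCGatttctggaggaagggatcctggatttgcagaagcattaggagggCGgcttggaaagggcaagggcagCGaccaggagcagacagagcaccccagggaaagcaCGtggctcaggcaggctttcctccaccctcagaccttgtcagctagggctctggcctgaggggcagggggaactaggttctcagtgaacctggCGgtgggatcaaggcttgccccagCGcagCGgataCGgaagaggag
Hoxd11: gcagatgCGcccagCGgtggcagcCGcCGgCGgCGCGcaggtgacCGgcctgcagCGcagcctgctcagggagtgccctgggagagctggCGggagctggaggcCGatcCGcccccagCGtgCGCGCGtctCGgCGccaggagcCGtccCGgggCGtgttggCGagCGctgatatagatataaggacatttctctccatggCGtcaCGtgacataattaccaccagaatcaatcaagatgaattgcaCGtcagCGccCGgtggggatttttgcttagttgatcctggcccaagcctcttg
Hoxb1: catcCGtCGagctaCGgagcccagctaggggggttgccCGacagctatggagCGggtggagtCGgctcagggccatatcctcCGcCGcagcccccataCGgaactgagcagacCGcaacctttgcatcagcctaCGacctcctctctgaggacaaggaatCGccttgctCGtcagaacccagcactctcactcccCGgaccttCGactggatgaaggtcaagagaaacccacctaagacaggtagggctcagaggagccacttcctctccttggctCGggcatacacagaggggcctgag

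Few Hox genes had a peak of their own. The 20 peaks carried the names of 14 of 39 Hox genes, and 25 genes had none. In Hoxa the named genes included Hoxa7 and Hoxa10. In Hoxb they were Hoxb1 and Hoxb4 with 1 peak each and Hoxb9 with 2. In Hoxc they were Hoxc10 and Hoxc11 with 2 peaks each and Hoxc13 with 1. In Hoxd they were Hoxd3 with 3 peaks, Hoxd9 with 2, and Hoxd11, Hoxd12 and Hoxd13 with 1 each. A name is the authors' choice among the genes within 5 kb, so genes that overlap noncoding transcripts can lose their peaks to those. The peak named Hoxd3 at chr2:74721001-74722350, for example, lay over the start of Hoxd4. By position, 38 peaks lay between the outermost Hox genes of the clusters, and the 18 that were not members carried names of noncoding or readthrough genes such as Gm20653 across Hoxa3 to Hoxa6 and 1700109F18Rik across Hoxd8, Hoxd4 and Hoxd3.

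**Figure D1:**
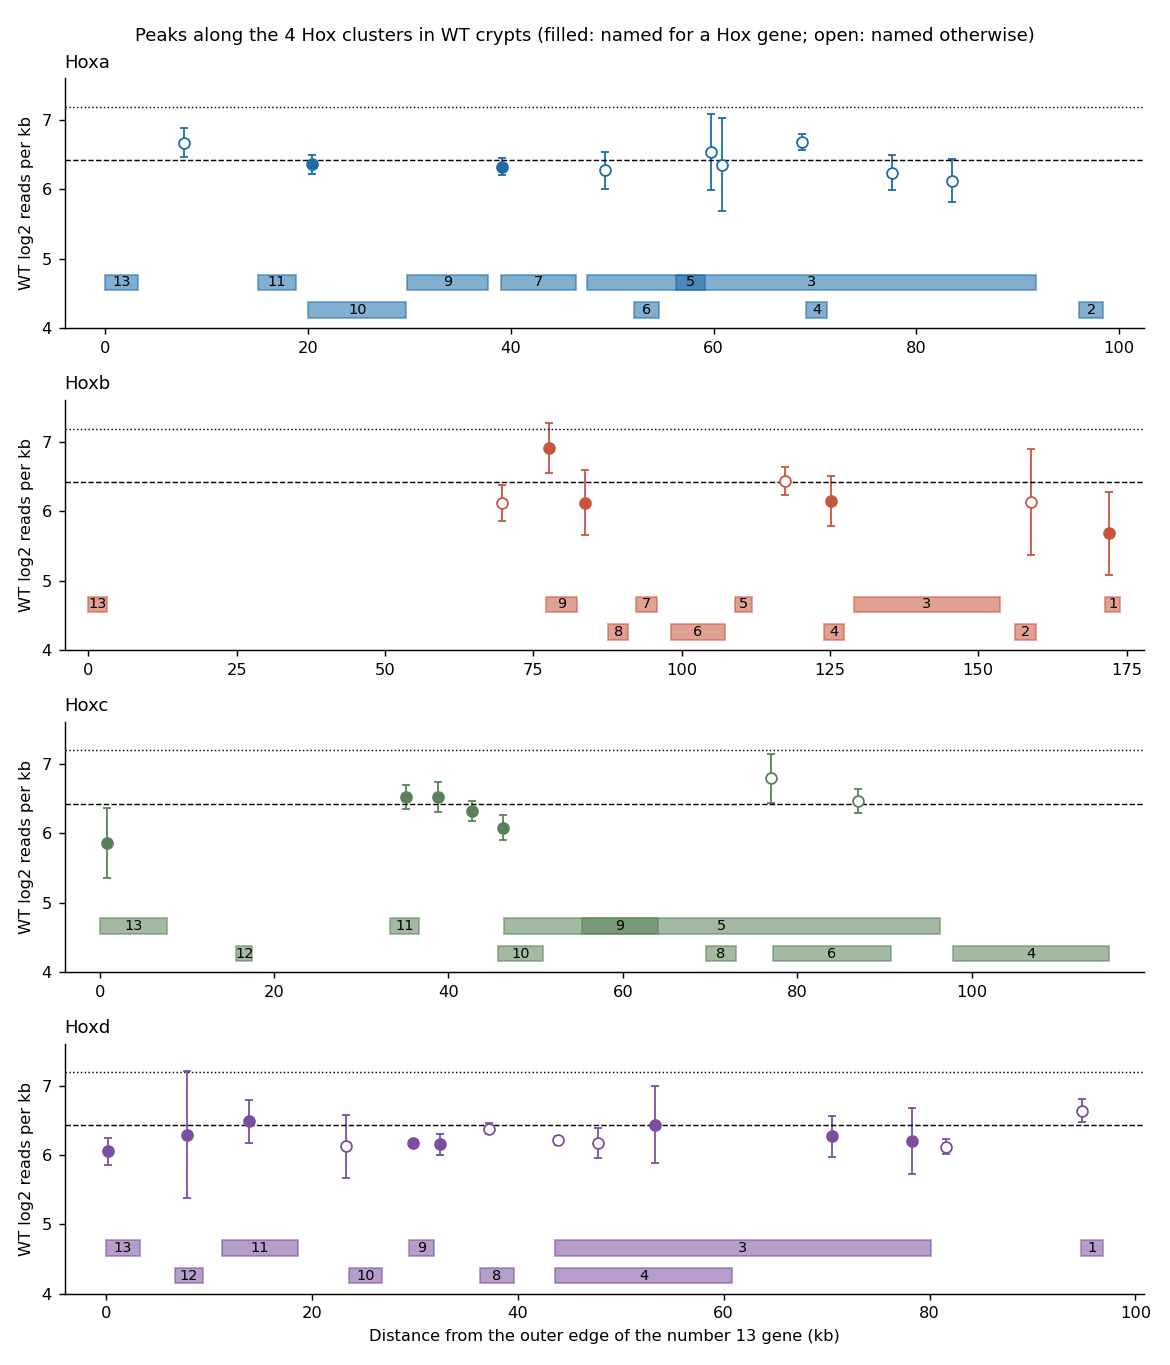
Peaks along the Hoxa, Hoxb, Hoxc and Hoxd clusters, with the distance from the outer edge of the number 13 gene in kb on the x axis and the WT level in log2 normalised reads per kb of peak on the y axis (mean and SD of 3 WT libraries). Filled points are 19 of the peaks named for a Hox gene, open points the 18 peaks with other names, boxes the numbered genes, the dashed line the median of all peaks (6.43) and the dotted line that of promoter peaks (7.19). Points are densest along Hoxd and absent over most of the Hoxb13 side of Hoxb.

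The clusters differed in how many peaks they held by position. Hoxd held 14 in 96.8 kb, which is 14.5 per 100 kb, Hoxa 10 in 105 kb (9.50 per 100 kb), Hoxc 7 in 116 kb (6.05 per 100 kb) and Hoxb 7 in 174 kb (4.02 per 100 kb). All 9 Hoxd genes had a peak of any name within 1 kb of an annotated start. The same held for 5 of 11 Hoxa genes, 4 of 9 Hoxc genes and 3 of 10 Hoxb genes, and so for 21 of 39 Hox genes (53.8%) in all. Among 21728 protein-coding genes of the GENCODE annotation it held for 14267 (65.7%). Overlapping long Hoxd transcripts share starts, so these genes are not separate observations. No peak lay within 5 kb of Hoxb5, Hoxb6, Hoxb7, Hoxb13, Hoxc4, Hoxc9 or Hoxc12. The stretch of 66.1 kb between the end of Hoxb13 and the nearest peak was empty. Since only called peaks were deposited, a stretch without a peak had no signal strong enough to be called, and its level is not known.

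The Hox peaks were weak for promoters. Strength is given as the log2 normalised read count per kb of peak, averaged over the 3 WT libraries, where normalised means scaled to the largest library. The 20 peaks had a median of 6.28 and ranged from 5.68 to 6.91, against a median of 6.43 over all 123510 peaks. Of the 20, 14 lay below the median of all peaks and 9 below its lower quartile (6.23). The position against all peaks depends on the library and on length. Per kb, the Hox median lay below that of all peaks in WT1 (-0.25), WT3 (-0.32) and KO3 (-0.15) and just above it in WT2 (0.03), KO1 (0.02) and KO2 (0.04). Without length scaling the Hox median was 5.91, above the 5.79 of all peaks. A promoter peak lies within 1 kb of the start of a protein-coding gene, and 15 of the 20 Hox peaks (75%) met this, against 13.01% of all peaks. These 15 had a median of 6.27, while the 16066 promoter peaks of the genome had a median of 7.19 and a lower quartile of 6.59. All 15 lay below that median, and 14 of the 15 lay below that quartile. The gap of 0.92 on the log2 scale corresponds to a 1.90-fold lower level. Within single libraries, the median of the Hox promoter peaks lay below the promoter median in all 6 libraries, by 0.46 (KO2) to 1.28 (WT3). In WT1 and WT3, without WT2, the gap averaged 1.13. Hox peaks were also narrow, with a median width of 750 bases against 1500 for promoter peaks.

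**Figure D2:**
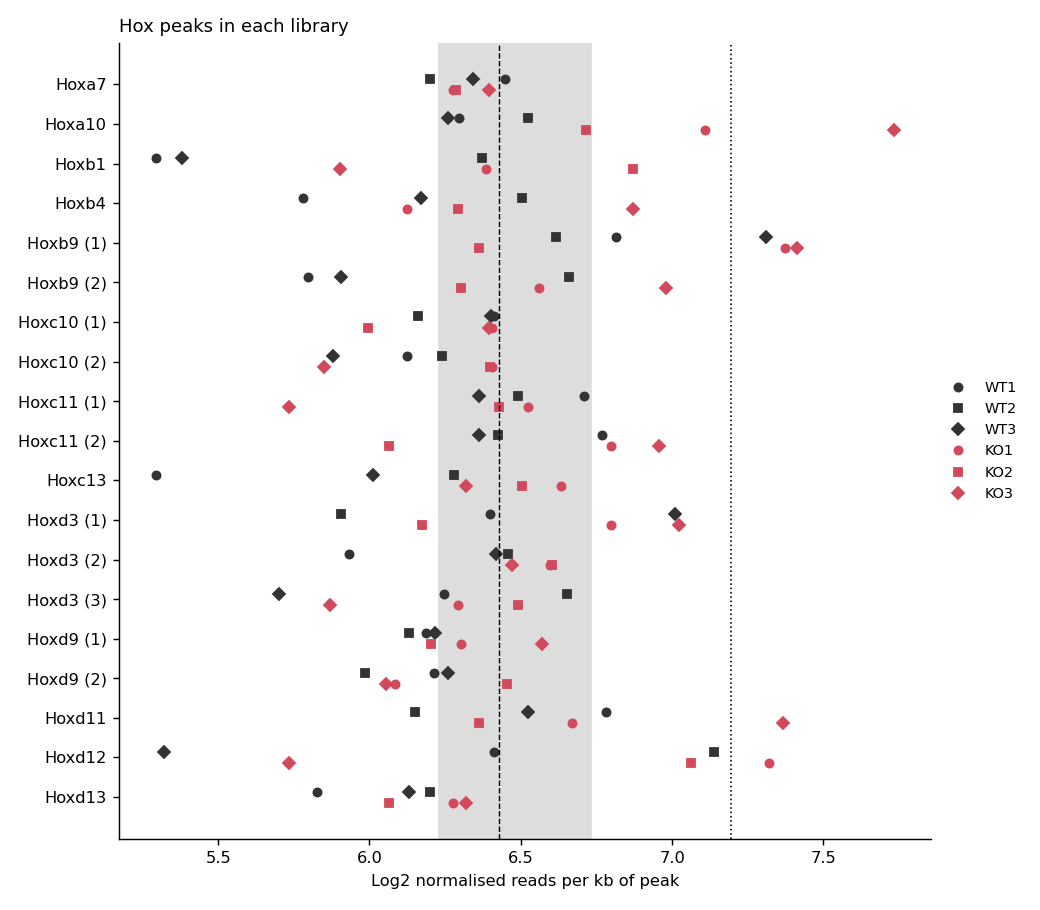
Level of 19 of the Hox peaks in each library (x axis, log2 normalised reads per kb of peak), with WT in black, KO in red and the marker shape giving the library number. The grey band is the quartile range of the WT level of all peaks, the dashed line their median (6.43) and the dotted line the median of promoter peaks (7.19). Almost all points lie left of the dotted line, and black and red overlap at most peaks.

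The strongest Hox peak covered the start of Hoxb9, a gene of the posterior group, at chr11:96271501-96272250. Its WT level was 6.91 per kb, at percentile 81.0 of all peaks. In log2 normalised reads it stood at 6.40, 6.20 and 6.89 in the WT libraries and 6.96, 5.95 and 6.996 in the KO libraries, so the groups overlapped. The other peak named Hoxb9, 1056 bases past the end of the gene, had 6.12 per kb. Both Hoxc11 peaks reached 6.52, although neither was at the promoter. One lay in the intron (chr15:102955951-102956400) and the other 1993 bases past the end of the gene. The Hoxd11 peak at chr2:74681851-74682600, over the start of a gene that patterns limbs and the trunk, was the strongest named Hoxd peak at 6.49 per kb. Peaks with other names stood higher in both clusters. That over the start of Hoxd1 was at 6.64 per kb, and that 7 bases from the start of Hoxc6 at 6.79.

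The weakest Hox peak was that of Hoxb1, a hindbrain gene, at chr11:96366001-96366600. Its WT level was 5.68 per kb, at percentile 0.0899 of all peaks. In KO it stood at percentile 47.6, and over all 6 libraries at 5.72. The read counts behind it were 12, 27 and 25 in the WT libraries and 23, 49 and 9 in the KO libraries. In normalised log2 reads WT2 (5.63) stood a full unit above WT1 (4.56) and WT3 (4.64). Hoxc13, the terminal gene of its cluster, was also at the bottom in WT, with 5.86 per kb at percentile 0.751 (chr15:102921451-102922350). In KO the Hoxc13 peak stood at percentile 56.5, and over all 6 libraries at 20.0. In Hoxd the lowest was Hoxd13, which is needed for digits and the genital and anal region, at 6.05 per kb (chr2:74668051-74668950). Among the named Hoxa peaks the lowest was Hoxa7 (chr6:52221301-52222200), at 6.33 per kb. It had 6.29, 6.05 and 6.19 in WT and 6.12, 6.13 and 6.24 in KO as log2 normalised reads. The Hoxa7 libraries lay closer together than those of most Hox peaks.

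Median WT levels per kb were 6.36 in Hoxa, 6.32 in Hoxc, 6.23 in Hoxd and 6.14 in Hoxb, with an SD of the cluster median between WT libraries of 0.0994 for Hoxa, 0.0664 for Hoxc, 0.0332 for Hoxd and 0.393 for Hoxb. The Hoxb median was 5.79 in WT1, 6.56 in WT2 and 6.04 in WT3, so this cluster was the lowest in WT1 and WT3 and the highest in WT2. The Hoxd median varied least, with 6.23, 6.18 and 6.24. In all 3 WT libraries Hoxd lay below Hoxa (6.45, 6.25 and 6.34) and below Hoxc (6.41, 6.28 and 6.36), while Hoxb had no fixed place. Over all 6 libraries, KO included, Hoxa lay above Hoxb in 3 of 6, above Hoxc in 3 of 6 and above Hoxd in 5 of 6. Hoxb lay above Hoxc in 2 of 6 and above Hoxd in 3 of 6, and Hoxc lay above Hoxd in 4 of 6. With every peak by position the medians were 6.47 for Hoxc, 6.36 for Hoxa, 6.21 for Hoxd and 6.13 for Hoxb.

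**Figure D3:**
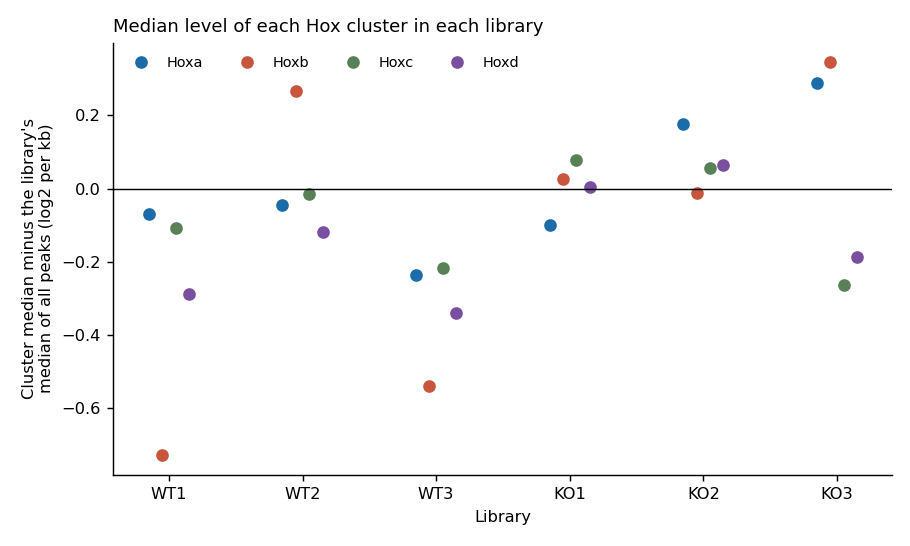
Median level of the peaks of each Hox cluster minus the median of all peaks in the same library (y axis, log2 per kb), for the 6 libraries on the x axis. Hoxb moves from -0.73 in WT1 to 0.34 in KO3, and the order of the clusters changes from library to library.

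Named peaks were most frequent at the posterior paralogue numbers. Of the 16 genes numbered 9 to 13, 9 had a named peak, with 13 peaks among them. Of the 15 genes numbered 4 to 8, 2 had one (Hoxb4 and Hoxa7, with 1 each), and of the 8 genes numbered 1 to 3, 3 had one, with 5 peaks. When a peak of any name within 1 kb of a start was counted, the shares were 9 of 16, 7 of 15 and 5 of 8. The largest share was then at numbers 1 to 3. The posterior lead and the low count in the middle of the clusters thus came in part from names. Median WT levels per kb were 6.29 for numbers 9 to 13, 6.24 for numbers 4 to 8 and 6.27 for numbers 1 to 3. In the WT libraries the medians were 6.29, 6.28 and 6.26 for numbers 9 to 13, 6.11, 6.35 and 6.26 for numbers 4 to 8, and 6.25, 6.37 and 6.42 for numbers 1 to 3. The order of the groups changed between libraries.

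Within a number the strongest named peak was that of Hoxd3 for number 3 (6.44 per kb, the peak over the start of Hoxd4), Hoxb4 for number 4 (6.15) and Hoxa7 for number 7 (6.33). It was that of Hoxb9 for number 9 (6.91), Hoxa10 for number 10 (6.36), Hoxc11 for number 11 (6.52), Hoxd12 for number 12 (6.29) and Hoxd13 for number 13 (6.05). Numbers 2, 5, 6 and 8 had no named peak. The strongest and the weakest of these maxima thus both belonged to the posterior group. The maxima follow the deposited names. A peak named Gm20653 over the start of Hoxa4 stood at 6.69 per kb, above the Hoxb4 peak. The Hoxd12 value is loose, with 5.32 to 7.14 per kb in the WT libraries and 12 to 23 reads behind it.

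The Hox peaks were rich in GC and CpG. Their median GC content was 59.1%, against 47.6% for all peaks and 54.7% for promoter peaks, whose upper quartile was 58.8%. The CpG observed over expected ratio, which is 1 where CpG is as frequent as its bases allow, had a median of 0.569 in Hox peaks, 0.162 in all peaks and 0.575 in promoter peaks. The 15 Hox promoter peaks alone had medians of 60.6% GC and 0.691. In both measures 19 of the 20 lay above the upper quartile of all peaks. The exceptions were the same peak, that named Hoxd3 over the start of Hoxd4, with 46.6% GC and a ratio of 0.220. The highest ratio belonged to Hoxd13 (0.976), which was the weakest Hoxd peak.

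**Figure D4:**
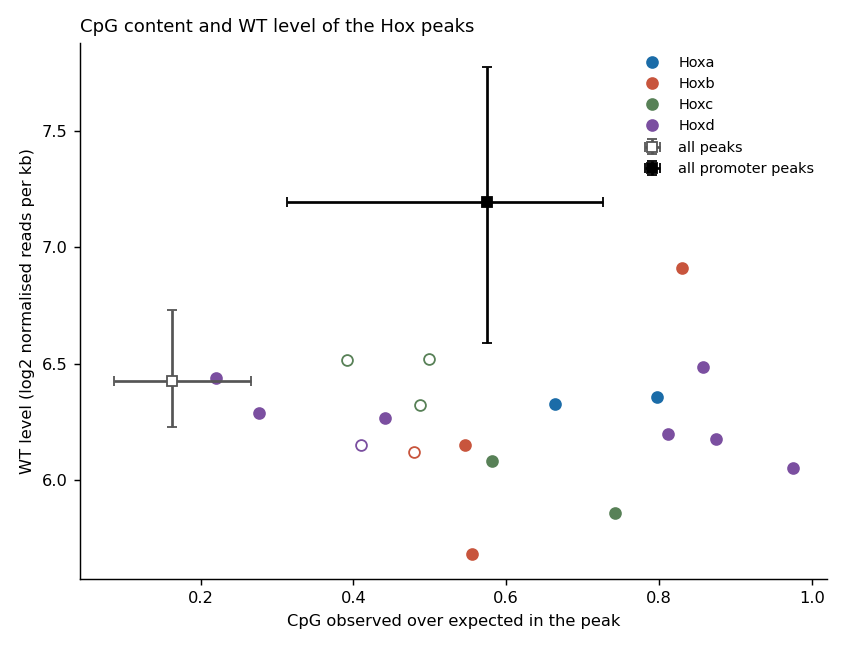
CpG observed over expected ratio in the peak (x axis) against the WT level in log2 normalised reads per kb (y axis) of 19 Hox peaks, coloured by cluster, with filled points for promoter peaks and open points for the others. Squares and bars give the median and quartiles of all peaks (0.162 and 6.43) and of all promoter peaks (0.575 and 7.19). The Hox promoter points spread along the x axis below the promoter square.

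Short motifs were counted on both strands in the central 300 bases. The core letters CCNNNAGNNGGC of the motif of CTCF, an architectural protein that binds between Hox genes, were found in 4 of 20 Hox peaks (20%), those of Hoxa7, Hoxa10, Hoxd11 and the Hoxd9 peak 93 bases past the end of the gene. The share was 6.995% over all peaks and 11.8% over promoter peaks. The letters TTTATNG of the motif of CDX factors, homeodomain proteins of the intestine, were found in 4 of 20, both Hoxb9 peaks, Hoxb4 and the Hoxc11 peak past the gene, against 13.2% of all peaks and 6.68% of promoter peaks. No central window held both motifs. Over whole peaks, both were found at Hoxa7 and at the Hoxd3 peak at chr2:74738401-74739300. A match is a run of letters and not a measured site.

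The comparison of KO with WT asked whether deletion of Smarcad1 changes accessibility at these peaks. No Hox peak was called with limma at a Benjamini-Hochberg adjusted p-value below 0.05, and 0 of all 123510 peaks (0%) were. Adjusted limma p-values were 1.00 at all 20. At an unadjusted limma p-value below 0.05 there were 2 Hox peaks, both higher in KO, against 0.909% of all peaks higher and 1.37% lower. With voom on recovered reads the count was 3, against 2.39% of all peaks in either direction. After rescaling the count was 1 or 2, against 2.59% to 3.12% of all peaks. As single libraries were left out it ran from 0 (without WT1 or without WT3) to 4 (without WT2). The shares of all peaks in these settings were 0.944% without WT1, 1.7% without WT3 and 4.56% without WT2. Standard errors ran from 0.243 to 0.495 on the log2 scale, and 14 of the 20 differences were within 1 standard error of 0. All 3 KO libraries lay above all 3 WT libraries at 3 Hox peaks (Hoxa10, Hoxc13 and a Hoxd3 peak), against 2.70% of all peaks, and below them at 0, against 4.10%.

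The direction of the differences leaned to KO. The mean was higher in KO at 17 of 20 Hox peaks (85%), against 46.9% of all peaks and 53.1% of promoter peaks. The median KO minus WT was 0.17 on the log2 scale, against -0.02 for all peaks and 0.01 for promoter peaks. All 8 Hoxd peaks and all 4 Hoxb peaks were on this side, with 3 of 5 in Hoxc and 2 of 3 in Hoxa. When each library was left out in turn, 13 to 18 of the 20 were higher in KO and the median stayed between 0.10 and 0.26. The share of all peaks that was higher moved from 32.2% without WT2 to 59.9% without WT3, while the median of all peaks lay between -0.14 and 0.08. The WT values enter both measures, so the low WT levels and the KO minus WT differences are not separate results. Without both number 2 libraries, a choice made after seeing the data, 15 of the 20 were higher in KO and the median was 0.32. Of all peaks 46.2% were higher in KO in that setting, with a median of -0.03.

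Hoxa10, a posterior gene of the trunk and reproductive tract, had the largest difference. Its peak of 300 bases at chr6:52240351-52240650 overlaps the transcript 145 bases from a start. In log2 normalised reads it stood at 4.56, 4.79 and 4.52 in WT and 5.37, 4.98 and 6.00 in KO. All KO libraries were above WT, with KO3 far above the others. The difference was 0.83 with a standard error of 0.322 and an unadjusted limma p-value of 0.0218, and it rested on 12, 15 and 23 reads in WT and 19, 22 and 16 in KO. Without KO3 it was 0.55.

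At Hoxc13 the log2 normalised reads were 5.14, 6.13 and 5.86 in WT and 6.48, 6.35 and 6.17 in KO. The lowest KO library was 0.04 above the highest WT library, and WT1 was low by itself. The difference was 0.62 with a standard error of 0.287 and an unadjusted limma p-value of 0.0461. Without WT1 it was 0.34. The Hoxd3 peak at chr2:74738401-74739300 was at 5.78, 6.31 and 6.27 in WT and 6.45, 6.45 and 6.32 in KO, a difference of 0.29 in which the groups were 0.01 apart. Without WT1 it was 0.12.

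Hoxb1 had the largest difference in its cluster, 0.70 with a standard error of 0.344. Its values were 4.56, 5.63 and 4.64 in WT and 5.65, 6.13 and 5.17 in KO, so WT2 lay within the KO range. The difference was 0.46 without KO2 and 1.05 without WT2. Among the named Hoxd peaks the largest was that of Hoxd12, at 0.42, with values of 4.67, 5.40 and 3.58 in WT and 5.58, 5.33 and 4.00 in KO. The KO3 value there rested on 4 reads. The lowest differences of named Hoxb and Hoxd peaks were those of the Hoxb9 start (0.13) and the Hoxd3 peak at chr2:74746201-74746950 (0.02).

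Among the 3 Hox peaks with a lower mean in KO, the intronic Hoxc11 peak had the largest difference, -0.29 with a standard error of 0.295. It stood at 5.56, 5.34 and 5.21 in WT and 5.37, 5.27 and 4.58 in KO, the last from 6 reads, and without KO3 the difference was -0.05. The Hoxc10 peak 2596 bases before the gene differed by -0.06 and the Hoxa7 peak by -0.01. The groups overlapped at all 3.

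**Figure D5:**
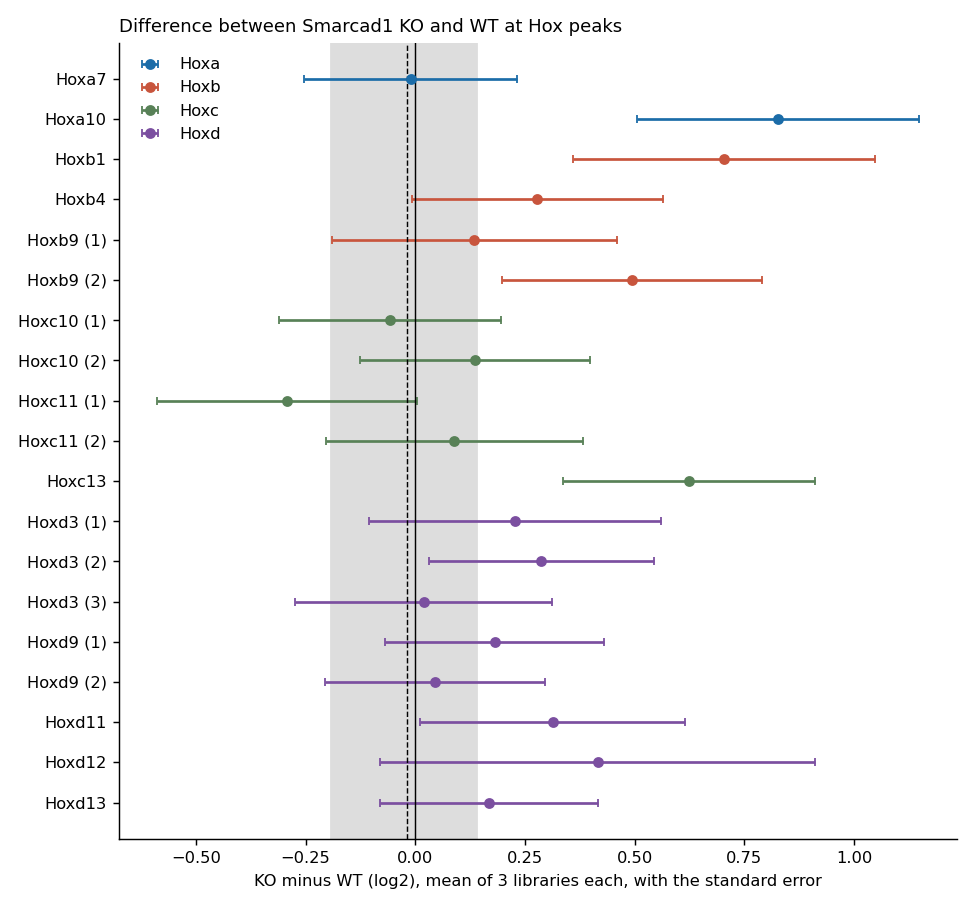
KO minus WT difference of 19 Hox peaks (x axis, log2, mean of 3 libraries in each group) with its limma standard error, coloured by cluster. The grey band is the quartile range of the difference over all peaks and the dashed line their median (-0.02). Of the 19 points, 16 lie right of 0 and 3 left, and the bars of 13 reach 0.

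By cluster the median difference was 0.39 in Hoxb, 0.20 in Hoxd, 0.09 in Hoxc and 0.01 in Hoxa. The Hoxd medians per kb were 6.23, 6.18 and 6.24 in WT and 6.45, 6.41 and 6.39 in KO, so that the groups did not overlap on this scale. Relative to the median of all peaks in each library they were -0.29, -0.12 and -0.34 in WT and 0.00381, 0.06 and -0.19 in KO, and there KO3 lay below WT2. With all Hoxd peaks by position the medians overlapped too, with WT3 (6.33) above KO2 (6.29). The Hoxb medians were 5.79, 6.56 and 6.04 in WT and 6.47, 6.33 and 6.93 in KO, and WT2 was higher than 2 of the KO libraries. The Hoxa median moved from -0.07 to 0.12 as single libraries were left out and the Hoxc median from -0.05 to 0.16, while Hoxb stayed between 0.18 and 0.61 and Hoxd between 0.12 and 0.25. The 13 peaks of numbers 9 to 13 had a median difference of 0.17, the 5 of numbers 1 to 3 of 0.23 and the 2 of numbers 4 to 8 of 0.13.

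Other genes that act with or on the Hox clusters gave 0 calls at an adjusted limma p-value below 0.05 in each of 8 lists. The ParaHox genes, the sister group of the Hox genes that includes the intestinal regulators Cdx1 and Cdx2, had 10 peaks and a median WT level of 7.04 per kb, above the 6.28 of the Hox peaks. Their strongest peak, of Cdx2, reached 8.18 and differed by -0.07 between KO and WT. The 40 peaks of the Hox cofactors, homeodomain partners such as Pbx and Meis proteins, had a median of 6.42 and a highest peak at Pknox1 (8.86). At Meis3 a peak stood at 5.43, 5.74 and 6.02 in WT and 6.52, 6.10 and 6.39 in KO, a difference of 0.61 with an unadjusted limma p-value of 0.0353. It was the only 1 of the 40 cofactor peaks below 0.05 before adjustment in limma, against 2.28% of all peaks in either direction.

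Genes of the Polycomb complexes, which keep Hox genes silent, had 51 peaks with a median of 6.84 per kb, led by Jarid2 (9.30). Trithorax and MLL genes, which oppose them, had 27 peaks with a median of 7.24, led by Kmt2b (8.60). The median difference between KO and WT was 0.01 in the Polycomb list and -0.02 in the Trithorax and MLL list. Genes of the pathway of retinoic acid, a signal that switches on anterior Hox genes, had 38 peaks (median 6.60 per kb, median difference 0.02, highest Rxra at 7.84). Architecture genes such as Ctcf and the cohesin subunits had 24 (6.52 per kb, 0.02, highest Stag1 at 8.82). No peak of these 4 lists was below 0.05 before adjustment in limma.

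The noncoding RNA and Evx genes within and beside the clusters had 13 peaks, with a median of 6.38 per kb and a highest peak at Hottip (6.85). The Haglr peak at chr2:74749651-74750250, between Hoxd3 and Hoxd1, stood at 5.50, 5.27 and 5.39 in WT and 6.08, 5.77 and 6.08 in KO. All KO libraries were above WT there, and the difference was 0.59 with an unadjusted limma p-value of 0.0304. The Evx2 peak at chr2:74655601-74656350, just outside the Hoxd13 end, went the other way, with 6.10, 5.88 and 5.86 in WT and 5.37, 5.27 and 5.58 in KO. Its difference was -0.54 with an unadjusted limma p-value of 0.0457. The 49 peaks of genes flanking the clusters had a median of 6.53 per kb, a median difference of 0.02 and a highest peak at Hibadh (8.92), and none was below 0.05 before adjustment.

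Peaks at marker genes of crypt epithelium were present at 10 of 13 genes (none was named Epcam, Vil1 or Ascl2), with summed normalised reads of 10867 to 14990 in WT and 10025 to 16987 in KO. Of the marker genes of immune cells 3 of 8 had a peak (Cd3e, Cd3d, Cd79a and Cd68 were among those without), with sums of 516 to 590 in WT and 512 to 571 in KO. Fibroblast markers had peaks at 7 of 8 genes (Lum without, 1074 to 1458 in WT, 1094 to 1520 in KO), smooth muscle markers at 5 of 6 (Des without, 539 to 755 and 538 to 822), endothelial markers at 6 of 6 (2429 to 3208 and 2356 to 3460) and enteric nervous system markers at 3 of 7 (712 to 1020 and 677 to 898). The ranges of WT and KO overlapped in every list. The sums rested on 33 peaks for crypt epithelium, 9 for immune cells and 14 for fibroblasts. They rested on 9 for smooth muscle, 29 for endothelium and 9 for the enteric nervous system. Sums of different lists are thus not comparable. Mesenchymal and neural cells of the gut also use Hox genes, and their part in the Hox signal was not tested. Fewer cells of a type and fewer cuts per cell cannot be told apart in such bulk samples.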

How the data were processed

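ATAC-seq was carried out on whole crypt nuclei of the small intestine from 3 WT and 3 KO samples, grouped and numbered by their titles. According to the submitters' processing notes and the study's methods, reads were trimmed with Trim Galore (0.4.1), mapped to GRCm38 with Bowtie2 (2.2.5) and imported into SeqMonk without duplicates, and MACS peaks were called there. Which libraries entered peak calling was not given in the sources used here. The values the authors deposited are log2 read counts per peak, scaled to the largest library. A second deposited table of peaks past the authors' edgeR threshold, with their adjusted p-values, was not used.

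Each value was a whole multiple of that of 1 read (tolerance 0.1 reads, 100% of values), which gave the reads per library. No interval was drawn from the reads, because PCR copies were not marked by molecular identifiers. Since the values are log2, limma (3.58.1, R 4.3.3) with lmFit and eBayes(trend=TRUE) replaced the authors' edgeR, on all 123510 peaks and 6 libraries, two-sided, with no covariate, pseudocount or filter, and Benjamini-Hochberg adjustment at 0.05. The limma code was tested on simulated reads. Strength per kb subtracts log2 of the peak width in kb. Cluster and list medians are descriptions with no test. Distances, exons and starts are from GENCODE vM21, and bases from the RefSeq GRCm38.p6 genome, both of the files' build. Lists were matched by Ensembl identifier or name.

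The members, the lists and the rule for named peaks were chosen with earlier results of these data known. The rule took, in each cluster, the 2 highest and the lowest WT levels and the extreme KO minus WT values, every Hox peak at an unadjusted p below 0.05, the strongest peak of each paralogue number, and in the other lists the highest peak and up to 3 at an unadjusted p below 0.05. Alternatives changed the scaling, pseudocount (5), filter (mean of at least 50 normalised reads), threshold (0.1), test (voom on recovered reads), membership, summary, libraries and replicate block. The values of 1 Hox peak are not reported here by themselves, though it is kept in the counts and medians.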

Additional observations from a re-analysis of the deposited data

How the results depend on the processing

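No Hox peak and no peak of the other lists was called by limma under any of the alternatives run, although calls over all peaks ran from 0 to 30 as single libraries were left out, and were 2 or 3 after rescaling or with voom, 143 without both number 2 libraries (chosen after seeing the data) and 272 with the replicate block. The replicate numbers do not pair the samples by the labels, and same-numbered libraries correlated at 0.04, 0.42 and 0.41 in their deviations from the group mean. WT and KO libraries with different numbers correlated at -0.46 (WT3 with KO2) to 0.04 (WT1 with KO3). With the replicate block the smallest adjusted limma p-value of a Hox peak was 0.413, against 1.00 without it, and 0 Hox peaks were called. Before adjustment 3 Hox peaks were below 0.05 in limma with the block, as were 6.87% of all peaks. Without the block 2 Hox peaks and 2.28% of all peaks were. Without both number 2 libraries the median KO minus WT of the Hox peaks was 0.32, against -0.03 for all peaks. As a mean over peaks the Hoxa difference was 0.28, which Hoxa10 sets.

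Without length scaling the median WT levels were 5.91 for all Hox peaks (5.79 for all peaks, so that the Hox median then lay above it), 6.16 for Hoxa, 5.56 for Hoxb, 5.71 for Hoxc and 6.04 for Hoxd, which changes the order of the clusters. Quantile normalization gave 6.24 for all Hox peaks and 6.20 for Hoxd, and members by position gave 6.47 for Hoxc. Leaving out single WT libraries gave 6.22 to 6.28 for all Hox peaks, 6.28 to 6.41 for Hoxc and 6.18 to 6.20 for Hoxd. The median KO minus WT of Hoxd ranged from 0.12 to 0.25 as libraries were left out.

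Of 261 recomputed KO minus WT differences of single Hox peaks, 19 changed sign, and no Hox peak was called in any setting. The 261 include the replicate block and the filter, which leave each difference as it was. Their share thus says little on how stable the signs are. With single libraries left out the differences ran from -0.0746 to 0.0483 at Hoxa7, -0.0467 to 0.48 at the Hoxb9 start, -0.14 to 0.0775 at the Hoxc10 peak before the gene and -0.0859 to 0.36 at the Hoxc11 peak past the gene. In Hoxd they ran from -0.0383 to 0.51, and from -0.23 to 0.24, at the Hoxd3 peaks nearest to and farthest from Hoxd13, from -0.0832 to 0.12 at the Hoxd9 peak past the gene and from -0.0689 to 0.90 at Hoxd12. Without both number 2 libraries that Hoxd9 peak was at -0.17. Hoxa7 was at 0.00226 with the trimmed mean of M values and at 0.0603 with voom. The cause of these changes was not tested. Filtering at 50 normalised reads left 15 of the 20 Hox peaks.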
